A study of Drosophila melanogaster with 6 samples.

Results

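Ldh, Gapdh2 and Hex-A are the genes of lactate dehydrogenase, of a glyceraldehyde-3-phosphate dehydrogenase and of a hexokinase. They were taken, by their FlyBase symbols, as the aerobic glycolysis genes present in the authors' deposited table, and they were 3 of its 3326 genes. The table held 1 comparison, of dom knockdown with wild type, and each of its genes had an adjusted p below 0.05. Ldh, Gapdh2 and Hex-A were thus chosen by the adjusted p of this same comparison, and their values are given as a description. The cells came from brains of wandering third-instar Drosophila melanogaster larvae and were sorted as living, GFP-positive cells. In the knockdown, insc-Gal4 drove a hairpin against domino (dom), the ATPase of a nucleosome remodelling complex, together with UAS-Dcr-2 and UAS-CD8-GFP (3 libraries). In the wild type, the same driver, Dcr-2 and GFP transgenes were crossed to w1118 with no hairpin (3 libraries). The insc-Gal4 driver is active in neuroblasts, and GFP that lasts into their progeny brings ganglion mother cells and young neurons into the sort. No label says whether libraries of a genotype came from separate crosses or dissections, so the spread behind the p-values may be technical.

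Glycolysis splits glucose into pyruvate. Hexokinase traps glucose in the cell as glucose-6-phosphate, and glyceraldehyde-3-phosphate dehydrogenase carries out the oxidation step that turns NAD+ into NADH. Lactate dehydrogenase reduces pyruvate to lactate and returns the NAD+, which lets glycolysis run without the mitochondria. In fly larvae this programme is switched on with growth under the nuclear receptor ERR. In the fly brain, glia are the more glycolytic cells and pass lactate and alanine to neurons.

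The target dom (FBgn0020306) was lower in the knockdown, at a log2 ratio of -0.58 (SE 0.11) that the authors' deposited table gives. The header of the ratio column names the control first. The signs were turned here to give knockdown over wild type, a choice that rests on that header and on the direction of dom. If the header meant the reverse order, every direction below would swap. Of the 11859 genes behind the authors' adjustment, 28.0% were listed, 13.9% as higher and 14.2% as lower in the knockdown. Genes outside the table have no known ratio: they missed the threshold or were left out of the authors' test. Only values over all libraries were used, so overlap between knockdown and wild type libraries was not examined for any gene, and read depth is unknown.

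Of the 3 genes, Ldh changed by far the most, and Gapdh2 and Hex-A were a little higher with the libraries scaled as the authors scaled them. Ldh (FBgn0001258, dm6 3L:6259105-6262694, minus strand, protein coding) had a mean normalized count of 2145 over all libraries in the authors' deposited table. From the authors' deposited table it was 6.91-fold higher in the knockdown, with a 95% interval from 5.29-fold to 9.01-fold (log2 2.79, SE 0.20, adjusted p by DESeq2 1.58e-43). If that ratio is taken as unshrunken and libraries count equally, the mean corresponds to about 3747 normalized counts in the knockdown and 543 in the wild type.

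Gapdh2 (FBgn0001092, X:15868145-15869661, plus strand, protein coding) was the most abundant of the 3, with a mean normalized count of 13463 in the authors' deposited table. From the authors' deposited table it was 1.26-fold higher in the knockdown, with a 95% interval from 1.10-fold to 1.45-fold (log2 0.34, SE 0.10, adjusted p by DESeq2 0.006). Under the same reading, the group means would be about 15034 normalized counts in the knockdown and 11891 in the wild type. Per kilobase of annotated exon, the mean normalized count of Gapdh2 was 9330, against 1364 for Hex-A and 1104 for Ldh, so Gapdh2 stood highest on a scale that allows for length.

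Hex-A (FBgn0001186, X:9585675-9589813, plus strand, protein coding) had a mean normalized count of 5645 in the authors' deposited table. In the authors' deposited table Hex-A was 1.22-fold higher in the knockdown, with a 95% interval from 1.09-fold to 1.35-fold (log2 0.28, SE 0.08, adjusted p by DESeq2 0.00195). The corresponding group means would be about 6197 normalized counts in the knockdown and 5093 in the wild type. The intervals of Gapdh2 and Hex-A overlapped over most of their width, and that of Ldh lay above both. All 3 passed an adjusted p below 0.01, as did 19.7% of all genes tested. Ldh alone passed an adjusted p below 0.001 (13.4% of all genes tested) or was at least 2-fold higher (6.38% of all genes tested). With all log2 ratios shifted down by 0.1, in place of another centring of the libraries, Ldh alone stayed past the threshold. The 47 listed cytosolic ribosomal protein genes were all higher, with a median log2 ratio of 0.35, and those not listed have no known ratio. Centred on these 47, Gapdh2 and Hex-A came out at -0.014 and -0.069 and Ldh at 2.44. Such a centre rests on genes past the same threshold and lowers every ratio. The 2 small values were then not apart from 0 (normal two-sided p 0.894 for Gapdh2 and 0.378 for Hex-A). As all 47 were higher, this centre had to lower Gapdh2 and Hex-A, so it does not decide their direction.

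**Figure D1:**
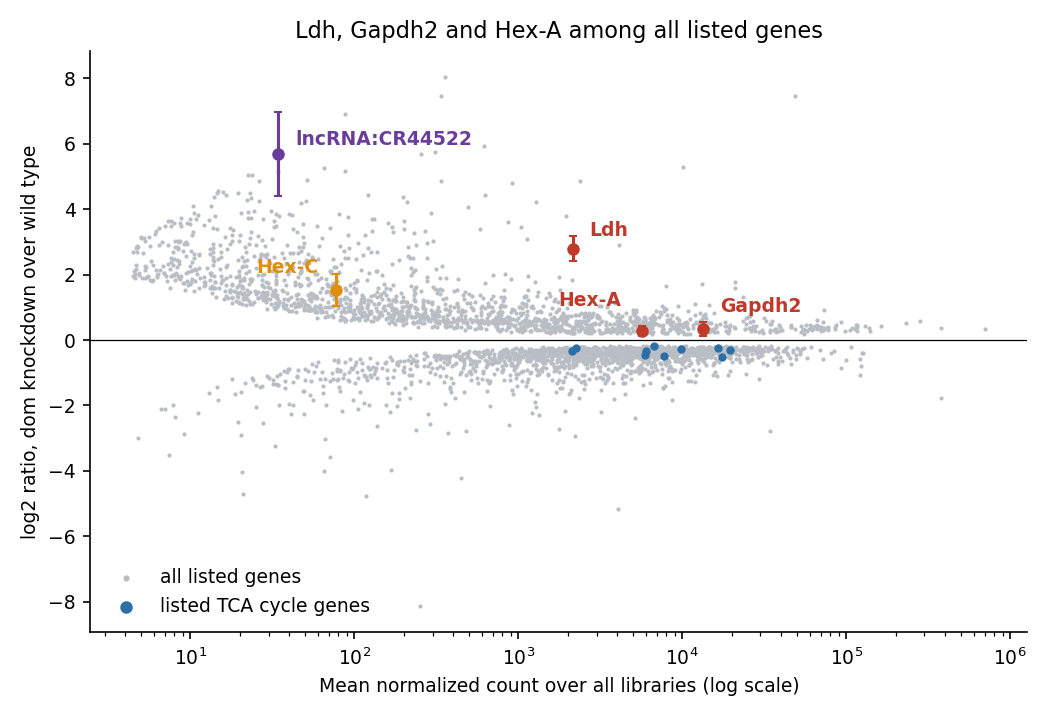
Each point is a listed gene, with its mean normalized count over all libraries on a log x axis and the log2 ratio of dom knockdown over wild type on the y axis. Bars on the named genes are 95% intervals from the authors' standard error. Ldh, at a log2 ratio of 2.79, stands well above most genes of its abundance, while Gapdh2 at 0.34 and Hex-A at 0.28 lie near the lower edge of the listed increases (-0.014 and -0.069 if centred on ribosomal protein genes), and the 10 listed TCA cycle genes lie just below 0.

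The 3 genes held different places among listed genes of like abundance. Of the 813 other listed genes with a mean normalized count from 0.5 to 2 times that of Ldh, 272 (33.5%) were higher in the knockdown, and 5 had a ratio at least as large as that of Ldh. These 5, singled out after their values were seen, were cv-2, Marf1, the stress-response gene Gadd45, lncRNA:CR42646 and FBgn0262526, an ID that matched no symbol here. Around Gapdh2, 127 of 530 genes were higher (24.0%), 92 of them by at least as much as Gapdh2. Around Hex-A the numbers were 201 of 847 (23.7%) and 165. Most abundant listed genes were thus lower in the knockdown, and Gapdh2 and Hex-A were among the minority with a higher value, with ratios below the median of that minority (log2 0.46 around Gapdh2 and 0.48 around Hex-A).

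The error of Ldh was large for its abundance. Its standard error of 0.20 exceeded that of 90.9% of the 813 genes around it, whose median was 0.12. The standard error of Gapdh2 (0.10) was at the middle of its surroundings, and that of Hex-A (0.08) was below the median of 0.10 there, with 13.7% of the genes smaller. The ratio of Ldh was 14.3 standard errors from 0.

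In their ratio, the listed genes of like abundance closest to Ldh were cv-2, whose secreted product tunes BMP signals, Marf1, an RNA-binding regulator, and alrm, an astrocyte gene. The authors' deposited table put them at 2.91, 3.10 and 1.94 on the log2 scale, 0.12, 0.31 and 0.84 away from that of Ldh. Genes close to Gapdh2 (CG8289, CG10417 and pk) and to Hex-A (epsilonCOP, RNASEK and Pef) were within 0.01 of them on the log2 scale, since many listed genes had small ratios. Likeness here is over 1 comparison only, and cv-2 (2R:21355015-21379464) lies near the targeted dom (2R:21323430-21341847). Whether that position bears on its ratio was not tested.

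Next to Ldh, a noncoding RNA gene changed in the same direction. The gene lncRNA:CR44522 (FBgn0265715, 3L:6263008-6263399, minus strand) lies upstream of Ldh on the same strand, 313 bp from its most distant start. From the authors' deposited table it was 52.0-fold higher in the knockdown, with a wide 95% interval from 21.3-fold to 127-fold (log2 5.70, SE 0.66, adjusted p by DESeq2 3.3e-16), the 7th largest ratio among the 3326 listed genes. Its mean normalized count was 34.4 in the authors' deposited table, which corresponds to about 67.5 in the knockdown and 1.30 in the wild type under the reading used above. With so few counts in the wild type, the size of this fold is poorly known. The annotation gives Ldh and lncRNA:CR44522 no exon base in common. Whether reads of the 2 genes came from separate transcripts was not tested.

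**Figure D2:**
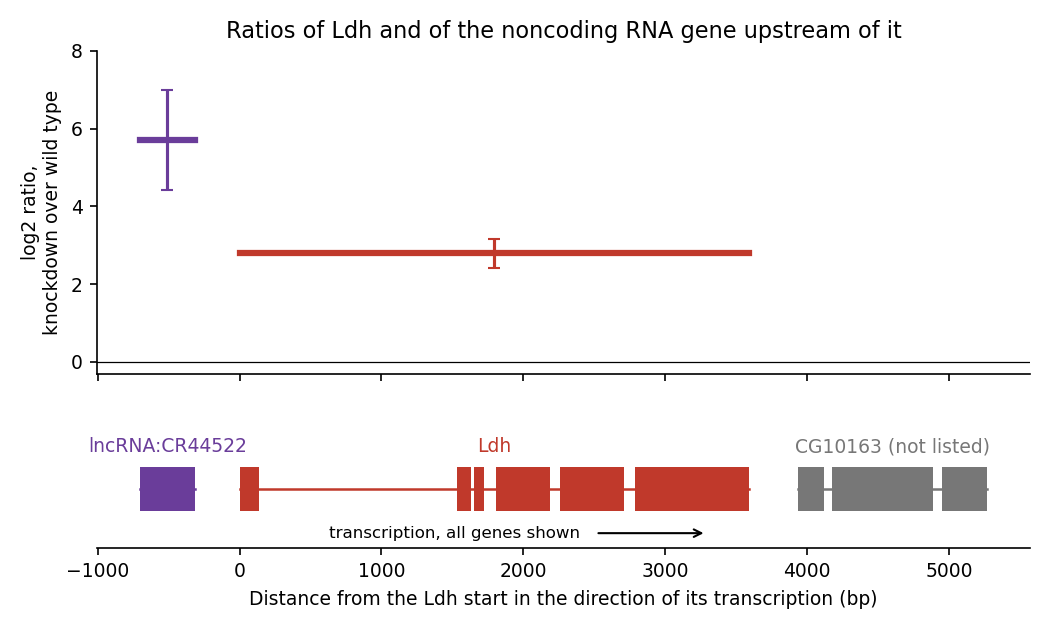
The upper panel gives the log2 ratio of dom knockdown over wild type (y axis) for Ldh and lncRNA:CR44522 as horizontal lines over each gene, with 95% intervals as vertical bars. The lower panel shows exons as boxes against distance in bp from the Ldh start (x axis). The noncoding gene ends 313 bp before Ldh and has a log2 ratio of 5.70, against 2.79 for Ldh, and CG10163 beyond the end of Ldh was not listed.

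The gene on the other side of Ldh, CG10163, lies 344 bp beyond its end on the same strand and was not listed. The increase was thus recorded for Ldh and its upstream neighbour, and no value is known for the downstream one. Neither neighbour of Gapdh2 was listed, that is Gbeta13F, which encodes a G protein subunit, 1969 bp upstream and CG16952 521 bp downstream. Farther out but within 10 kb of Gapdh2, AlkB and tay were listed, both as lower, and the authors' deposited table gives them log2 ratios of -0.39 and -0.21. The adjacent genes of Hex-A, lncRNA:CR45541 and lncRNA:CR45542, were not listed, and the only other gene listed within 10 kb was lncRNA:CR45540, which was higher (log2 0.67, SE 0.23 in the authors' deposited table).

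No exon base of Ldh, Gapdh2 or Hex-A is shared with another annotated gene, on either strand. Ldh has 4 annotated transcripts over 1942 bp of exon, Gapdh2 2 over 1443 bp and Hex-A 3 over 4139 bp. Gapdh2 and Hex-A have related copies, among them Gapdh1 and Hex-C, and reads that fit several copies equally well could be lost or shared. That part was not tested, and the sources used here do not give the counting settings.

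Beyond Gapdh2 and Hex-A, little of glycolysis was listed in this comparison. Of 21 genes for the steps from glucose to pyruvate, counting tissue-specific copies, 3 were listed and all 3 were higher in the knockdown. That is 14.3% of the list, against 28.0% listed and 13.9% listed as higher among all genes tested. Gapdh2 and Hex-A are among the 3 and were chosen because they were listed, so this share does not measure the pathway. With all ratios shifted down by 0.1, or centred on ribosomal protein genes, Hex-C alone of the 3 passed. Besides Gapdh2 and Hex-A, the third was Hex-C, a hexokinase known from the fat body. The authors' deposited table has it 2.89-fold higher at a mean normalized count of only 77.0 (log2 1.53, SE 0.25, adjusted p by DESeq2 1.74e-08). Pgi, Pfk, Ald1, Tpi, Pgk, Pglym78, Eno and PyK, which cover the other steps, were not listed. Gapdh1, which serves the same step as Gapdh2, was not listed either. The median log2 ratio of the 3 listed genes was 0.34, against -0.20 over all listed genes, but listing alone does not choose a typical member.

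Around pyruvate, Ldh was the only listed gene that was higher. This group held 19 genes that make, use or exchange pyruvate and lactate or carry cytosolic reducing power to the mitochondria. Of them, 7 were listed (36.8%, against 28.0% of all genes tested), Ldh as higher and the other 6 as lower. Gpo1, the mitochondrial glycerol-3-phosphate dehydrogenase, which feeds electrons from cytosolic NADH into the respiratory chain, was lowest. From the authors' deposited table it stood at 0.416 times the wild type level (log2 -1.27, SE 0.18, adjusted p by DESeq2 5.83e-11). Got1, an aspartate aminotransferase gene, followed, and the authors' deposited table gives its log2 ratio as -0.58 (SE 0.09, adjusted p by DESeq2 8.86e-09). As background, Gpo1 and Got1 act in shuttles that, like lactate dehydrogenase, return cytosolic NAD+.

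The other genes of this group had smaller decreases. Pdha, a subunit of the pyruvate dehydrogenase that sends pyruvate into the TCA cycle, and Pdk, the kinase that switches this enzyme off, were both lower, and the authors' deposited table has their log2 ratios at -0.27 and -0.40. PCB, the pyruvate carboxylase gene, and Men, a malic enzyme gene, were given as -0.43 and -0.42 on that scale by the authors' deposited table. The 7 listed genes had a median log2 ratio of -0.42, with 6 lower, against a median of -0.32 and 69.9% lower among all listed genes in the same range of abundance. Whether lactate or pyruvate themselves changed was not measured.

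**Figure D3:**
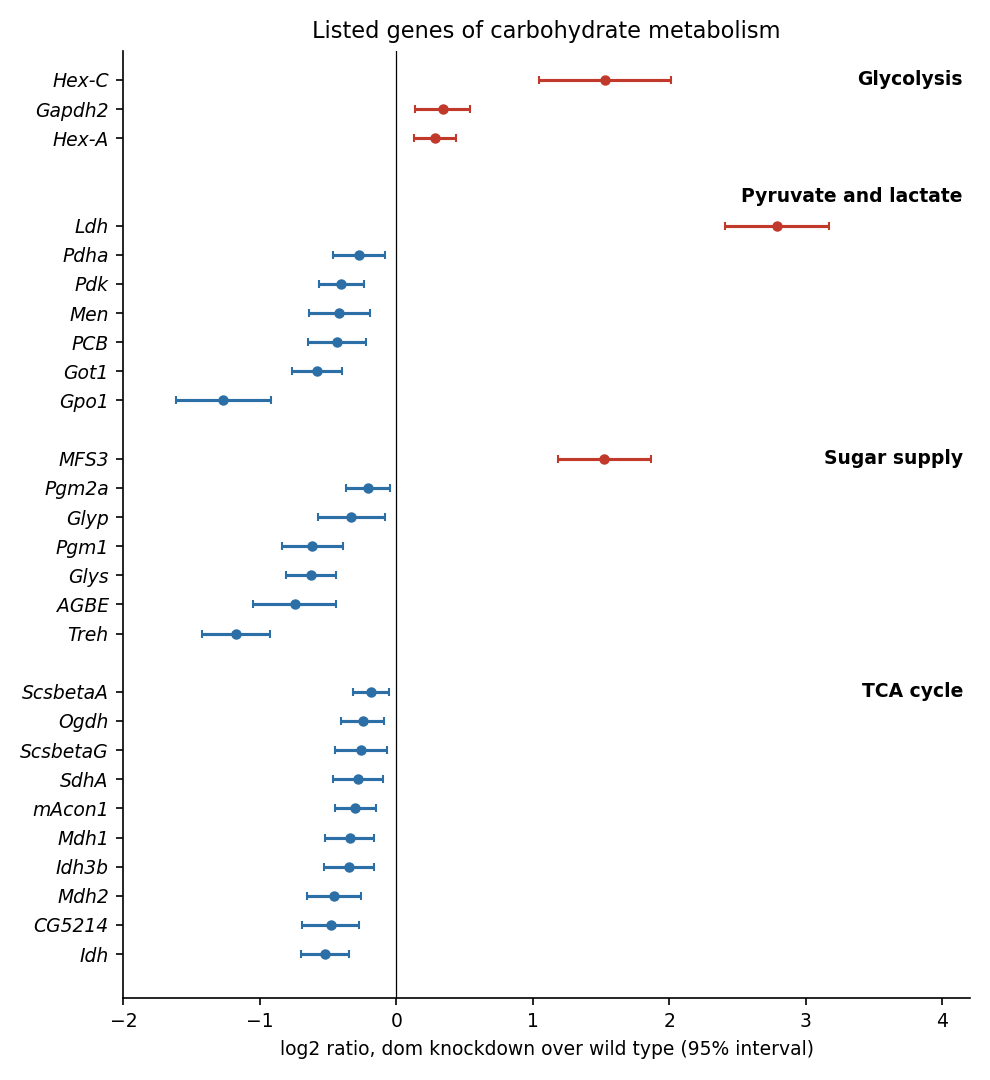
Points are log2 ratios of dom knockdown over wild type (x axis) for each listed gene of 4 gene lists (rows), with 95% intervals from the authors' standard error. Ldh, Hex-C, MFS3, Gapdh2 and Hex-A lie right of 0. Gapdh2 and Hex-A would lie just left of 0, with intervals across it, if centred on ribosomal protein genes. The other listed genes of these lists lie left of 0, with Gpo1 at -1.27 and Treh at -1.17 farthest.

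Among genes of sugar supply and glycogen metabolism, most of those listed were lower. Of 18 genes in this group, 7 were listed (38.9%, against 28.0% of all genes tested), 6 of them lower. Among the 1308 listed genes in the same range of abundance, 68.7% were lower. Treh encodes trehalase, which splits trehalose, the main blood sugar of insects, into glucose. By the authors' deposited table it stood at 0.443 times the wild type level (log2 -1.17, SE 0.13, adjusted p by DESeq2 3.86e-18). Genes of glycogen synthesis and breakdown were lower too, and on the log2 scale the authors' deposited table gives -0.74 for the branching enzyme gene AGBE, -0.63 for the glycogen synthase gene Glys and -0.33 for the phosphorylase gene Glyp. The phosphoglucomutase gene Pgm1 and the related Pgm2a were listed at -0.62 and -0.21 by the authors' deposited table. MFS3, a sugar transporter gene known from the glia at the brain surface, went the other way. The authors' deposited table has it 2.88-fold higher (log2 1.52, SE 0.18, adjusted p by DESeq2 2.44e-16). From 4 genes of gluconeogenesis, the authors' deposited table listed fbp, which encodes a fructose bisphosphatase, as lower (log2 -0.70). From 8 genes of the pentose phosphate pathway, the authors' deposited table listed Pgd, a dehydrogenase gene of that pathway, as higher (log2 0.35). Its ratio turns to -0.0061 if centred on ribosomal protein genes. The gluconeogenesis and pentose phosphate lists had 25.0% and 12.5% of their genes listed, against 28.0% of all genes tested.

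All listed TCA cycle genes were lower. Of 25 genes of the cycle and its isoenzymes, 10 were listed (40.0%), against 28.0% listed and 14.2% listed as lower among all genes tested. The authors' deposited table spans log2 ratios from -0.52 for Idh, an NADP-dependent isocitrate dehydrogenase gene, to -0.18 for ScsbetaA, a succinyl-CoA synthetase gene. The malate dehydrogenase genes Mdh2 and Mdh1 were at -0.46 and -0.34, and SdhA, the flavoprotein of succinate dehydrogenase, was at -0.28, by the authors' deposited table. CG5214, mAcon1, Idh3b, Ogdh and ScsbetaG made up the rest. Their direction was that of most listed genes of their abundance: the 10 had a median log2 ratio of -0.32, against -0.33 for the 1219 listed genes in that range, of which 74.3% were lower. With all ratios shifted up by 0.1, 6 of the 10 still passed, all lower. In these sorted pools of cells, fewer cells of a type and less RNA per cell cannot be told apart.

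Of 80 genes of oxidative phosphorylation, 7 were listed (8.75%, against 28.0% of all genes tested), 5 as higher and 2 as lower. Centred on ribosomal protein genes, 3 of the 5 higher genes (ND-SGDH, ND-49 and UQCR-11) had ratios below 0. In absolute size, the largest log2 ratios belonged to COX4L and ATPsynepsilonL, low-abundance copies of respiratory chain genes, and the third to ND-15, a complex I gene, which the authors' deposited table gives as 3.12, 2.82 and -0.46 on the log2 scale. Out of 9 genes of monocarboxylate transport, which moves lactate and pyruvate across membranes, the authors' deposited table listed kar and CG13907 as lower (log2 -0.66 and -0.40). That is 22.2% of the list, against 28.0% of all genes tested, and 65.6% of listed genes in their range of abundance were lower. The lactate and pyruvate carriers chk, Sln and out were not listed.

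**Figure D4:**
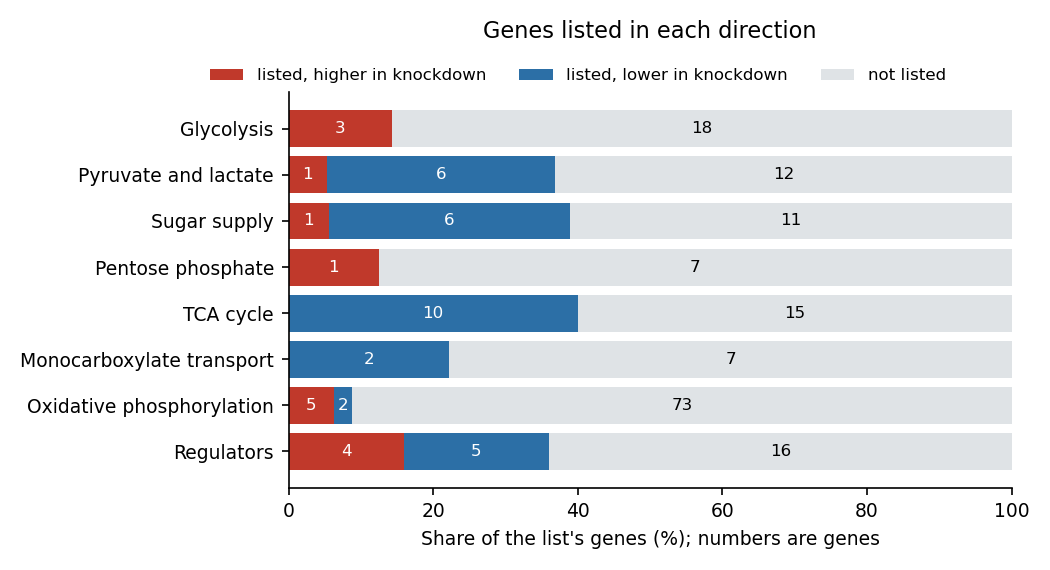
Bars give, for each gene list (rows), the share of its genes in percent (x axis) that were listed as higher in the knockdown, listed as lower or not listed, with the number of genes printed in each part. The TCA cycle list has 10 lower and 0 higher genes, the pyruvate and lactate list 6 lower and 1 higher, and glycolysis 3 higher and 0 lower.

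Listed regulators of sugar metabolism and growth did not share a direction. ERR, the nuclear receptor that activates Ldh in larvae, and sima, the hypoxia-inducible factor that does so in low oxygen, were not listed, nor were Hph, Vhl, crc, foxo and N. The partner of sima, tgo, was slightly lower, and so was Mondo, a sugar-sensing transcription factor gene (log2 -0.23 and -0.39, by the authors' deposited table). Myc, a growth regulator, was 1.39-fold higher, and the authors' deposited table gives a log2 ratio of 0.48 (SE 0.15). In the insulin and TOR pathway, the authors' deposited table listed the kinase genes Pdk1 as higher (log2 0.53) and Akt and mTor as lower (log2 -0.29 and -0.58).

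Thor and scyl, which restrain TOR output, were higher. Thor, the 4E-BP translation inhibitor gene, stood 2.52-fold higher by the authors' deposited table (log2 1.33, SE 0.19, adjusted p by DESeq2 1.54e-10). For scyl, which encodes an inhibitor of TOR induced by low oxygen, the authors' deposited table gives 1.40-fold (log2 0.49, SE 0.10, adjusted p by DESeq2 1.73e-05), while the related chrb was not listed. Usf, a helix-loop-helix factor gene, was at -0.24, by the authors' deposited table. The 25 regulators had 9 listed genes, 4 higher and 5 lower (36.0%, against 28.0% of all genes tested). Of listed genes in their range of abundance, 68.3% were lower.

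Listed glia markers were higher, like Ldh, and listed neuron and blood cell markers were lower. Of 6 glia markers, 4 were listed and all 4 were higher (66.7%, against 13.9% of all genes tested), and the authors' deposited table spans log2 ratios from 0.56 for repo to 1.94 for alrm. Ldh was higher by more than any of them, and MFS3 was within their range. Of listed genes in the abundance range of the glia markers, 64.2% were lower. The 7 neuron markers had 4 listed genes, all lower (log2 -0.60 to -2.71), and the 6 blood cell markers had 4, also all lower (log2 -0.80 to -4.77), by the authors' deposited table. These are 57.1% and 66.7% of the lists, against 14.2% lower of all genes tested, and 71.8% and 54.5% of listed genes in the abundance ranges of the neuron and blood cell markers were lower. The glia markers moody and Gs2, the neuron markers elav, nSyb and brp, and the blood cell markers Col4a1 and vkg were not listed. Of 6 neuroblast markers only wor was listed, as higher (log2 0.61). That is 16.7%, against 28.0% listed and 13.9% listed as higher among all genes tested. The identity of the sorted cells could thus not be checked on dpn, ase or mira. The mean normalized counts of the listed glia markers ran from 765 to 4267 in the authors' deposited table, so these transcripts were present in the sort. The part of glia, neurons or blood cells in the values of Ldh, Gapdh2 and Hex-A was not tested.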

How the data were processed

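RNA was extracted with TRIzol and made into libraries with a TruSeq RNA kit, per the labels' protocols, with no word on strand. The submitters' processing notes name STAR 2.3.0e, HTSeq 0.6.1, SAMtools 0.1.19, FastQC 0.11.2 and DESeq2, and genome build dm6. The annotation, the counting settings and any shrinkage of ratios are not stated there. The deposited table, in UTF-7, was decoded first. Per the file headers, the authors gave a mean over all libraries of size-factor-scaled counts (a signal), a log2 ratio with the control first, 2 score columns (its standard error and the Wald statistic), and the raw and adjusted p-value. In the deposited table the statistic equalled the ratio over its error within 9.77e-14, and the largest adjusted p was 0.0499.

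Python 3.11.15 with pandas 2.3.3 and scipy 1.17.1 was used. The number of tests, 11859, was recovered from the adjusted p, the rank and the p, exactly (within 0.01) in 2883 rows, a step tested on simulated data. Symbols matched 3264 of 3326 IDs, so counts within lists are minimums; 7 list symbols matched no gene. Positions are 1-based and from Ensembl release 115, whose assembly is that of dm6. Intervals are 95% normal limits from the authors' error. The group means were computed from the overall mean and the ratio. A shifted ratio passed if its normal two-sided p was at or below 0.014, the largest p in the table.

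The genes and the lists were chosen with earlier results of these data known. The named genes were Ldh, Gapdh2, Hex-A, dom, neighbouring genes, every listed member of the pathway lists (for oxidative phosphorylation the 3 largest ratios at a mean of at least 50), and the 3 closest ratios per gene. No gene set test was made. A further gene of pyruvate and lactate metabolism is not reported here.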

Additional observations from a re-analysis of the deposited data

How the results depend on the processing

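The increase of Ldh kept its direction and stayed past the threshold under the 3 centrings tried, with log2 ratios from 2.44 to 2.89, and Ldh was also called at every other setting. Gapdh2 and Hex-A did not hold as well. With all ratios shifted down by 0.1, their log2 ratios of 0.24 and 0.18 no longer passed. Centred on listed cytosolic ribosomal protein genes, all of them higher in the knockdown, Gapdh2 and Hex-A came to -0.014 and -0.069. Neither was then apart from 0. Of Ldh, Gapdh2 and Hex-A, 1 was called at an adjusted p below 0.001, 1 with a Bonferroni adjustment, 1 at a change of at least 2-fold, 1 after the shift down and 1 after the ribosomal centring. All 3 were called at an adjusted p below 0.01, after a shift up by 0.1 and with means under 50 left out. Of the glycolysis list, 1 gene was called at an adjusted p below 0.001, with Bonferroni, at 2-fold, after the shift down and after the ribosomal centring, against 3 otherwise. For the next 2 lists the alternatives were chosen after seeing the data. The TCA cycle count of 10 became 4 at an adjusted p below 0.001, 1 with Bonferroni, 0 at 2-fold and 6 after the shift up, all lower. The pyruvate and lactate count of 7 became 4 with Bonferroni and 2 at 2-fold. Of all genes tested, 13.4% passed an adjusted p below 0.001. The list counts at the other settings were not set against all genes tested, so they describe the lists only. Shifts bear on listed genes only, so a shift can remove calls but not add them. No paired analysis was possible because values per library were not used here, and for the same reason leaving out each replicate and another normalization were not run.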
